A study of Homo sapiens with 6 samples.

Results

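Described here is the messenger RNA of HT29 cells under the solvent control alone. HT29 is an established line of human colorectal adenocarcinoma, grown from a tumour of the colon. The series compared HT29 cells given the solvent DMSO with HT29 cells given the small molecule YM155 for 24 h. Of its 6 libraries, the 3 labelled DMSO were used, chosen by that label, and the YM155 libraries were not analysed here. How long the DMSO cells were kept before collection is not stated separately. The labels call the samples a triplicate without saying that the cultures were separate, so every SD below (n = 3) is the spread between 3 libraries and may be technical.

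The lining of the colon is renewed from stem cells at the base of the crypts, whose daughters take either an absorptive or a secretory fate. Notch signalling drives the absorptive choice through HES1, and its absence allows ATOH1 to open the secretory programme of goblet, enteroendocrine, tuft and, in the small intestine, Paneth cells. Wnt signalling keeps crypt cells dividing, and most colorectal cancers switch it on through loss of APC. HT29 is known for mutations in APC, BRAF and SMAD4, and for subclones that can be made to form mucus-secreting or absorptive cells.

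Levels are in FPKM, fragments per kilobase of transcript at a common library size, a unit that corrects for length and depth, so that levels of different genes can be compared within this table. A gene is called present where it reached 1 FPKM in all 3 libraries. By that rule 11630 of 26255 rows, 44.3%, were present, and 10804 of 18965 protein-coding rows, 57%. Ranks below are among the 18965 protein-coding rows, with 1 as the highest. From the steps between low values, the libraries held an estimated 24.4 to 27.3 M assigned reads, so that 3 reads on a transcript of 2000 bases, the limit that a count of 0 allows, came to 0.0549 to 0.0614 FPKM. Levels near or below that are not distinguished from 0 here, and intervals of this kind cover counting error only. Log2 levels of the present genes correlated between libraries at Pearson's r of 0.996 to 0.997, across genes, which are not independent replicates.

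The transcriptome was led by the machinery of translation. Ribosomal protein genes held 34.5% ± 0.937 of the summed FPKM, and 23 of the 25 highest protein-coding genes and 69 of the 100 highest belonged to them. RPL41, a very small protein of the large ribosomal subunit, was the highest protein-coding gene, at 7371, 8072 and 6895 FPKM in replicates 1, 2 and 3. RPS27, of the small subunit, followed at 6286, 6829 and 5890.0 FPKM, and the ranges of the pair did not overlap. Replicate 2 was the highest library for both. The only genes among the 25 highest that encode no ribosomal protein were TMSB10, a thymosin that binds monomeric actin, and EEF1A1, the factor that brings aminoacyl-tRNA to the ribosome. TMSB10 stood at rank 3 with 5344, 5773 and 5586 FPKM, above all but RPL41 and RPS27. EEF1A1 stood at rank 11 with 3844, 4013 and 3778 FPKM.

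Abundance was concentrated in few genes. The 10 highest rows held 10.3% ± 0.393 of the summed FPKM, the 100 highest 45.3% ± 0.991 and the 1000 highest 72.2% ± 0.686. A mean of at least 1000 FPKM was reached by 88 rows, at least 100 by 639 and at least 10 by 5942. The median present protein-coding gene stood at 11.06 FPKM, with quartiles at 5.03 and 25.6, and the levels below can be read against these values. Some exact zeros fall on genes that every cell uses. H3F3A, a histone H3.3 gene with near copies in the genome, was listed at 0 in 1 library and above 10 FPKM in the others, so a gene listed at 0 is described as such and not as silent.

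**Figure D1:**
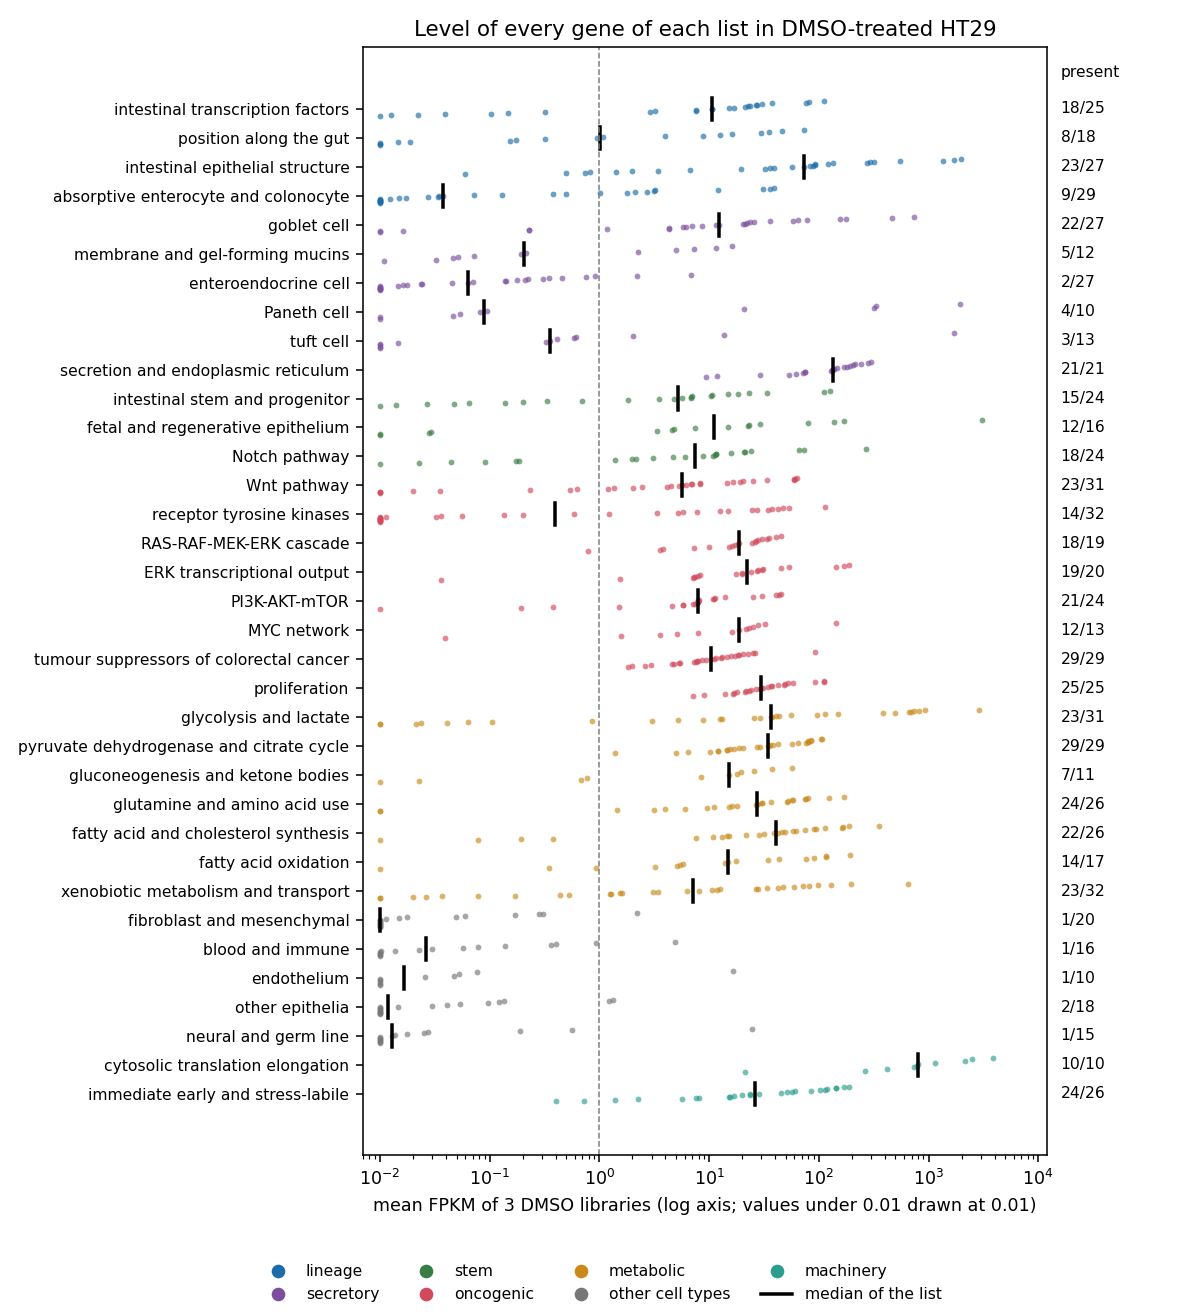
Each point is the mean FPKM of 1 gene over the 3 DMSO libraries (log axis), in rows by gene list and coloured by theme; the black bar is the median of the list, the dashed line 1 FPKM, and the numbers on the right the members present of those in the files. All 21 genes of secretion and the endoplasmic reticulum, all 25 of proliferation and all 29 of the citrate cycle list were present, against 2 of 27 enteroendocrine and 1 of 20 fibroblast genes. Of all protein-coding rows, 57% were present.

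Genes of intestinal epithelial structure were read beside the label of the cell line. Members such as KRT8, KRT18 and EPCAM are general to epithelia, and the lists were chosen with earlier results known. The share present therefore cannot tell colon from other epithelia. Of the structural genes, 23 of 27 were present, against 57% of all protein-coding rows, at a median of 72.7 FPKM over the list. KRT8 and KRT18, the paired keratins of simple epithelia, led them: KRT8 stood at 1936, 2027 and 1922 FPKM and KRT18 at 1688, 1781 and 1648 FPKM. The ratio of KRT8 to KRT18 was 1.15 ± 0.0145 (SD, n = 3), and the ranges of these genes did not overlap. LGALS4, a galectin of the intestinal brush border, followed at 1347, 1417 and 1332 FPKM, at rank 73. TSPAN8, a tetraspanin abundant in gastrointestinal tumours, stood at 554 ± 8.26 FPKM and KRT19 at 317 ± 14.2 FPKM. Adhesion and junction genes spanned a wide range. The epithelial adhesion molecule EPCAM stood at 267, 259 and 302 FPKM and E-cadherin, CDH1, at 70.2, 72.9 and 74.9 FPKM. Of the tight junction genes, CLDN4, a claudin, stood at 295 ± 11.2 FPKM, the scaffold TJP1 at 19.7 ± 0.639 FPKM and occludin, OCLN, at 6.69 ± 0.184 FPKM, the last below the median present gene.

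The keratin pair used to recognise colorectal tumours was far apart in level. KRT20, a keratin of differentiated intestinal epithelium, stood at 119.7, 122 and 119 FPKM, and KRT7, a keratin usually low in colon, at 1.66, 1.51 and 1.03 FPKM. KRT20 was 89.2 ± 22.7 times KRT7, with the libraries running from 72.1 to 115, and KRT7 lay close to the limit for a present gene. The 4 remaining genes of this list were under 1 FPKM in every library. CDH17, the liver-intestine cadherin, was at 0.6501, 0.794 and 0.771 FPKM. GPA33, an antigen of colonic epithelium, was at 0.423, 0.5198 and 0.534 FPKM. MYO1A, the brush border myosin, was at 0.828 ± 0.00878 FPKM, and CDHR2, a protocadherin that links microvilli, at 0.0599 ± 0.0134 FPKM. VIL1, encoding villin, the actin bundler of microvilli, was present at 38.6 ± 0.706 FPKM, and USH1C, which anchors the microvillar links, at 91.7 ± 2.29 FPKM.

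Among transcription factors of gut epithelium, 18 of 25 were present, against 57% of all protein-coding rows. KLF5, a factor of proliferating crypt cells, led at 114, 98.6 and 119 FPKM. The ETS-family epithelial factors EHF and ELF3 came next, EHF at 84.9, 78.7 and 81.4 FPKM and ELF3 at 75.6, 77.7 and 76.8 FPKM. The ranges of KLF5 and EHF did not overlap, and those of EHF and ELF3 did not overlap. FOXA1, a pioneer factor of endoderm, stood at 37.7 ± 3.03 FPKM, FOXA2 at 26.6 ± 1.47 and FOXA3 at 23.4 ± 1.63. The nuclear receptor HNF4A, a central activator of enterocyte genes, stood at 20.4, 21.9 and 21.2 FPKM, 2.003 ± 0.231 times its relative HNF4G.

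The caudal factors, which set intestinal identity, were low. CDX2 stood at 2.97, 2.91 and 3.72 FPKM, rank 9227, below the lower quartile of present genes, with replicate 3 the highest. CDX1 was under 1 FPKM at 0.1401, 0.116 and 0.182 FPKM, so CDX2 was 22.2 ± 2.43 times CDX1. The homeobox gene ISX, the bile acid receptor NR1H4 and the xenobiotic receptor NR1I2 averaged under 0.0549 FPKM, and each was listed at 0 in at least 1 library. GATA4, which marks the proximal intestine, was listed at 0 in all 3, while its relative GATA6 stood at 10.6 ± 0.579 FPKM.

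Of the genes that mark position along the gut, 8 of 18 were present, a share below the 57% of all protein-coding rows, and all of the present ones were HOX genes. HOXB9 led at 70.2, 77.2 and 73.5 FPKM, followed by HOXB6 at 45.2, 48.3 and 46.2 FPKM and HOXA10 at 35.9, 33.8 and 36.6 FPKM. The ranges of no adjacent pair among the 8 present genes overlapped. The posterior genes HOXA13 and HOXB13, of the hindgut, were lower, at 8.74 ± 0.249 and 3.97 ± 0.398 FPKM, and HOXB9 was 18.6 ± 1.196 times HOXB13. PRAC1, a small gene beside HOXB13 that is known in distal colon and prostate, was listed at 0 in all 3 libraries. Of the stomach and foregut markers of this list, PDX1, a factor of pancreas and duodenum, stood at 1.14, 0.647 and 1.05 FPKM, while SOX2 averaged 0.151 FPKM and CLDN18 0.174 FPKM. Gastric genes of other lists were present, and TFF1, MUC5AC and ANXA10 are given with those lists.

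**Figure D2:**
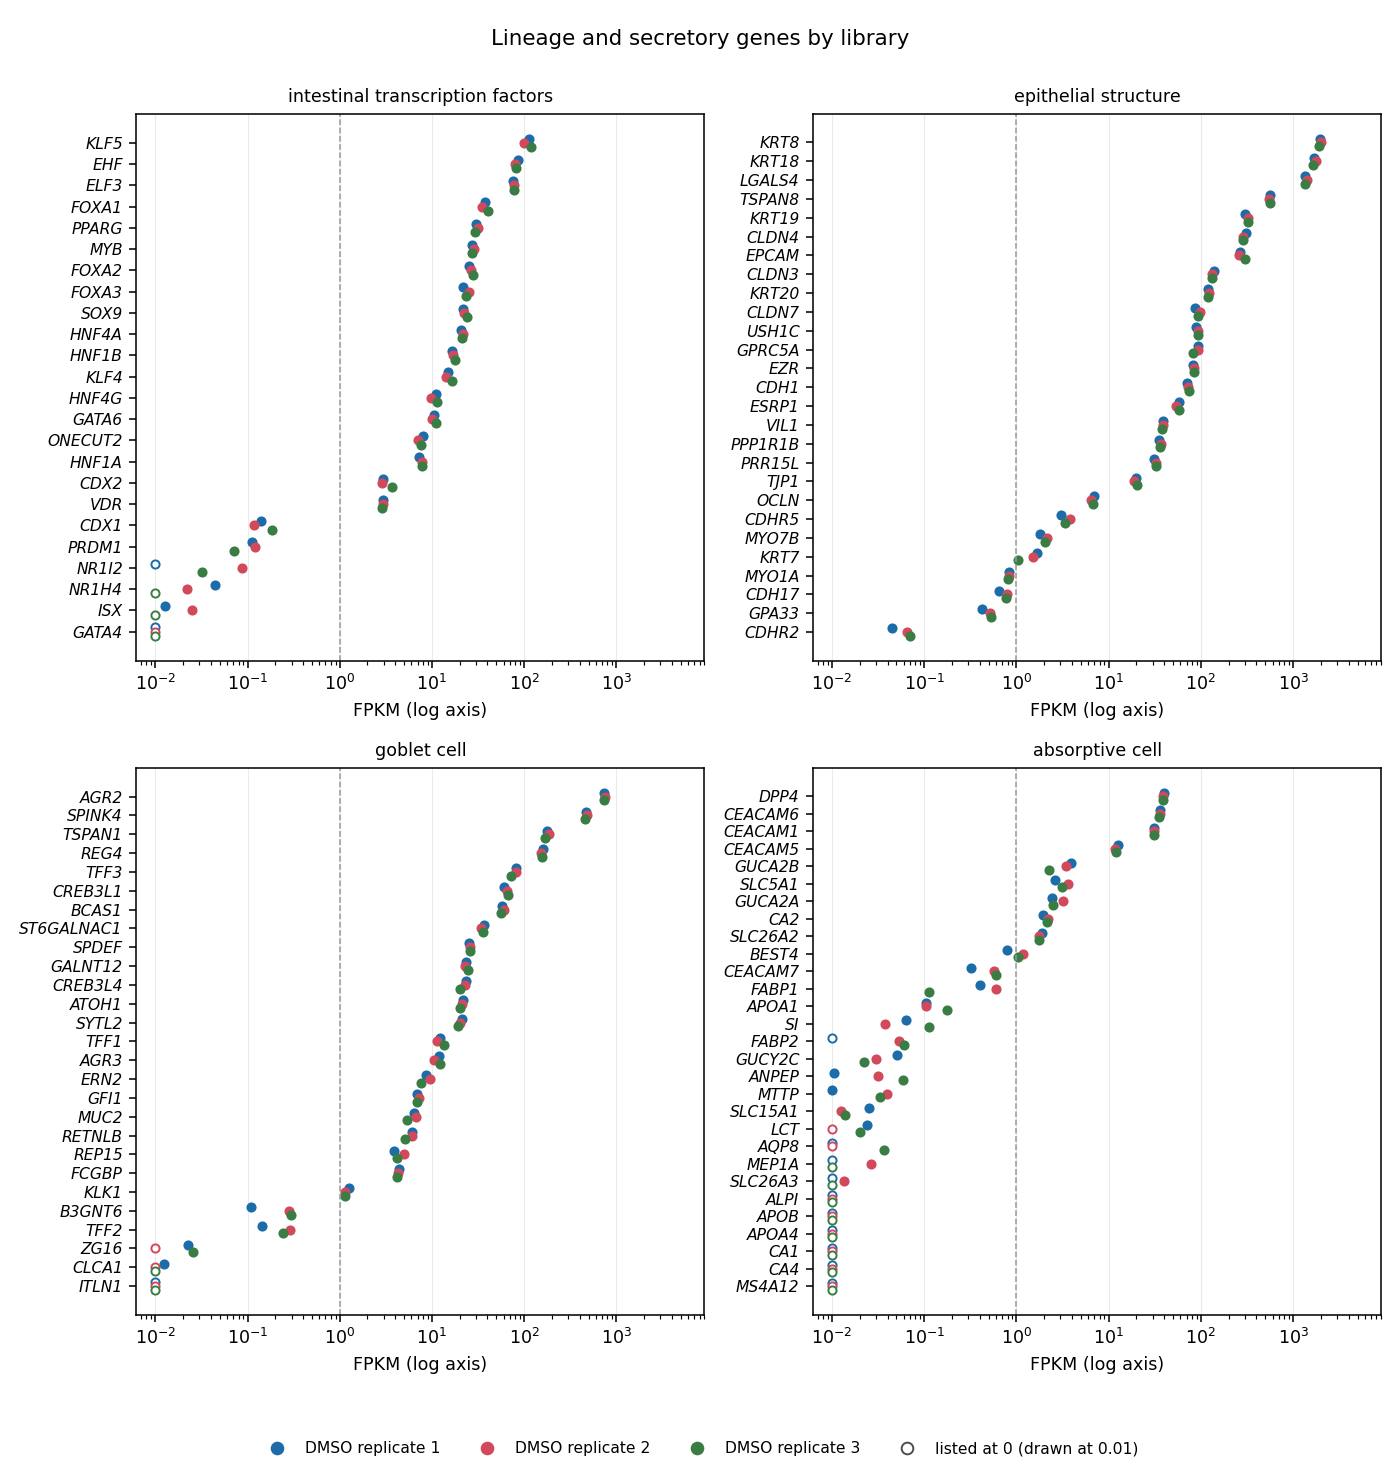
FPKM (log axis) of each gene in each DMSO library, for 4 lists (with 1 transcription factor not shown), ordered by mean; colours give the replicate, open circles a value listed at 0, filled points at 0.01 a value at or below 0.01, and the dashed line 1 FPKM. The keratins and the goblet genes AGR2 and SPINK4 lie far to the right of CDX1 and most absorptive genes, and the 3 libraries of the high genes nearly coincide.

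Genes of mature absorptive cells were few. Of 29 listed, 9 were present, against 57% of protein-coding rows, and the median of the list was 0.0378 FPKM. In bulk RNA, here and for every cell type below, fewer cells of a type and less RNA per cell cannot be told apart. DPP4, a peptidase of the apical membrane, led at 39.6, 38.5 and 39.02 FPKM. The carcinoembryonic antigen family came next: CEACAM6 at 36.3, 36.3 and 35.1 FPKM, CEACAM1 at 31.1 ± 0.417 FPKM and CEACAM5 at 12.5, 11.6 and 11.95 FPKM. CEACAM6 was 2.99 ± 0.123 times CEACAM5, but these genes share long similar stretches and the counting could have split their reads. CEACAM7, a member lost early in colorectal tumours, was under 1 FPKM in each library, at 0.495 FPKM on average.

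Digestive and transport genes were at the lower end. The guanylin peptides, which act on the salt-secreting receptor GUCY2C, were present, GUCA2B at 3.897, 3.42 and 2.27 FPKM and GUCA2A at 2.46, 3.23 and 2.52 FPKM, whereas GUCY2C itself averaged 0.0343 FPKM. Carbonic anhydrase 2, CA2, stood at 2.09 ± 0.143 FPKM, and CA1 and CA4, its colonocyte relatives, were listed at 0 in all 3 libraries. So were ALPI, the intestinal alkaline phosphatase, MS4A12, a colonocyte membrane protein, and the lipoprotein genes APOB and APOA4. FABP1, a fatty acid binding protein, averaged 0.375 FPKM and sucrase-isomaltase, SI, 0.0711 FPKM, and FABP2 was listed at 0, 0.0535 and 0.0599 FPKM. SLC26A3, the chloride exchanger of colonocytes, was above 0 in 1 library only.

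Among the lists of differentiated gut cell types, the goblet list had the largest share present, a share that depends on how each list was chosen. Of 27 listed, 22 were present, against 57% of protein-coding rows, 15 at a mean of at least 10 FPKM. AGR2, a disulfide isomerase needed for mucin folding, led at 738, 759 and 726 FPKM, at rank 104. SPINK4, a small protease inhibitor of goblet cells, followed at 472, 483 and 452 FPKM, at rank 139. TSPAN1 stood at 176 ± 8.75 FPKM, and REG4, a secreted lectin of deep crypt secretory cells, at 159, 154 and 155 FPKM. The trefoil peptide TFF3, which is packed with mucin, stood at 81.4, 81.3 and 71.8 FPKM, 6.44 ± 0.974 times TFF1, a trefoil of the stomach. AGR2, SPINK4 and TSPAN1 together held 70.99% ± 0.423 of the summed FPKM of the list.

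The factors that set this fate were present at moderate levels. ATOH1, the switch to the secretory lineage, stood at 21.6, 21.4 and 20.2 FPKM, and SPDEF, which drives goblet maturation, at 25.4, 25.8 and 25.6 FPKM. The ranges of SPDEF and ATOH1 did not overlap. GFI1, which acts downstream of ATOH1, was at 6.99 ± 0.226 FPKM, and CREB3L1, a factor of secretory cells, at 64.3 ± 2.97 FPKM. ST6GALNAC1, which adds sialic acid to mucin sugars, stood at 35.5 ± 1.29 FPKM. The mucin itself was low: MUC2, the gel of the colon, stood at 6.395, 6.72 and 5.38 FPKM, and AGR2 was 121 ± 12.02 times MUC2. FCGBP, which is bound into the mucus, was at 4.29 ± 0.119 FPKM. RETNLB, a resistin-like peptide secreted by goblet cells, was at 6.12, 6.005 and 5.06 FPKM. The 5 members under 1 FPKM in all 3 libraries were B3GNT6, which builds mucin sugars, at a mean of 0.229 FPKM, the trefoil TFF2 at 0.226 FPKM, and the secreted proteins ZG16, CLCA1 and ITLN1. ZG16 was listed at 0.0228, 0 and 0.0254 FPKM, CLCA1 was above 0 in 1 library only and ITLN1 was at 0 in all 3. Secreted goblet products therefore ran from the level of SPINK4 down to 0.

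Of the other mucins, 5 of 12 were present, a share below the 57% of all protein-coding rows. MUC20 led at 15.4, 16.2 and 16.9 FPKM and MUC13, a membrane mucin of the gut, followed at 11.6, 10.8 and 12.2 FPKM. MUC1 stood at 7.23 ± 0.3098 FPKM and MUC5AC, the gel mucin of stomach and airway, at 4.98, 5.38 and 4.74 FPKM, with its highest library just below the lowest of MUC2. MUC5B, MUC4, MUC12 and MUC17 were each under 1 FPKM in all 3 libraries. Mucin genes hold long repeats, to which short reads place poorly, and how the authors' counting treated such reads is not given in the sources used here.

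The remaining secretory fates were represented by few genes each, in shares below the 57% of all protein-coding rows. Of 27 enteroendocrine genes, 2 were present. They were NEUROG3, the factor that starts the fate, at 6.996, 7.11 and 6.21 FPKM, and ISL1, a later factor, at 1.92, 2.05 and 2.58 FPKM. The factors and products downstream were not: NEUROD1, CHGB, INSL5 and PCSK1N were listed at 0 in all 3 libraries, and chromogranin A, CHGA, was listed at 0.0264, 0.0263 and 0 FPKM. RFX6 and PAX4, which act with or after NEUROG3, were just under the limit, at means of 0.916 and 0.7603 FPKM. Of the tuft cell list, 3 of 13 were present: KRT18, which is general to simple epithelium, ALOX5, a lipoxygenase, at 13.7 ± 1.04 FPKM, and AVIL, an actin regulator, at 2.04 ± 0.226 FPKM. POU2F3, the factor that defines tuft cells, averaged 0.614 FPKM, and DCLK1 was listed at 0 in all 3.

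Of 10 Paneth cell genes, 4 were present, and 3 of those were among the most abundant of all. Lysozyme, LYZ, stood at 1984, 1809 and 2075 FPKM, at rank 56, and alone held 74.3% ± 1.05 of the summed FPKM of the list. MMP7, a matrix metalloproteinase, stood at 312, 342 and 309.9 FPKM, and the surface protein CD24 at 339, 301 and 361 FPKM. The ranges of MMP7 and CD24 overlapped. The Paneth-specific antimicrobials were not among them: DEFA5 and REG3A were listed at 0 in all 3 libraries, DEFA6 was above 0 in 1 library only, and PLA2G2A averaged 0.0949 FPKM.

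All 21 genes of the general secretory route were present, against 57% of all protein-coding rows. Their median was 136 FPKM, against 11.06 for present protein-coding genes. SSR4, of the translocon, led at 300.3 ± 17.7 FPKM, HSP90B1, a chaperone of the endoplasmic reticulum, at 279.6 ± 12.8 and P4HB, protein disulfide isomerase, at 245 ± 10.9. XBP1, the transcription factor that builds the secretory apparatus, stood at 217, 211 and 208 FPKM, at rank 266. In 14 of these genes replicate 3 was higher than both other libraries, a share of 66.7% against 34.2% of all present protein-coding genes.

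Stem and progenitor genes were mixed. Of 24 listed, 15 were present, a share of 62.5% that is near the 57% of all protein-coding rows. SLC12A2, a salt transporter of crypt base cells, led at 129, 117 and 131 FPKM, with CD44, the hyaluronan receptor and Wnt target, at 111, 109.5 and 112 FPKM. LGR5, the receptor that marks crypt stem cells, stood at 7.31, 7.08 and 6.44 FPKM, at rank 7078. ASCL2, the factor of those cells, was lower, at 1.51, 2.13 and 1.79 FPKM, and OLFM4, the most abundant marker of human crypt stem cells, was listed at 0 in all 3 libraries. SMOC2 was above 0 in 1 library only, and EPHB2, another crypt marker, averaged 0.2004 FPKM, against 6.87 ± 0.408 FPKM for its relative EPHB3. PROM1, encoding CD133, stood at 18.3 ± 0.481 FPKM and BMI1 at 10.6 ± 1.04 FPKM.

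Genes of the fetal and regenerating epithelium were present in 12 of 16 cases, against 57% of all protein-coding rows. S100A6, a calcium-binding protein, led at 2998, 3272 and 3014 FPKM, at rank 26, and held 86.1% ± 0.873 of the summed FPKM of the list. TM4SF1 stood at 178, 162 and 174 FPKM and ANXA10, an annexin of gastric epithelium and of serrated colorectal tumours, at 140.2, 136 and 136 FPKM. ANXA1, an annexin raised in regenerating epithelium, stood at 79.3 ± 2.21 FPKM. The YAP targets CTGF and CYR61 (now CCN2 and CCN1) stood at 22.7 ± 3.49 and 4.76 ± 0.796 FPKM. The EGFR ligands EREG and AREG were at 4.600 ± 0.319 and 3.37 ± 0.656 FPKM. LY6D was listed at 0 in all 3.

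Of the Notch pathway, 18 of 24 genes were present, against 57% of all protein-coding rows. HES6, an inhibitor of HES1, led at 263, 274 and 270.1 FPKM, at rank 212, and held 47.7% ± 1.82 of the summed FPKM of the list. The glycosyltransferase LFNG, which tunes the receptors, stood at 69.2, 75.9 and 75.3 FPKM. HES1, the main target, stood at 83.6, 54.1 and 59.2 FPKM, with replicate 1 the highest and the others close together. The receptors were lower, NOTCH1 at 8.73 ± 0.336 and NOTCH2 at 6.03 ± 0.324 FPKM, with NOTCH3 and NOTCH4 under 1 FPKM in all 3 libraries. Among ligands, DLL4 stood at 11.4 ± 0.254, JAG1 at 4.72 ± 0.191 and DLL1, the ligand of secretory progenitors, at 1.98 ± 0.4305 FPKM. HES1 and ATOH1, known as opposing factors, were therefore both present in the same bulk RNA. Bulk RNA does not tell whether the same cells held both.

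Of the Wnt list, 23 of 31 genes were present, against 57% of all protein-coding rows. DKK1, a secreted inhibitor of the pathway, led at 65.6, 61.9 and 62.2 FPKM. CSNK1A1, a kinase of the destruction complex, stood at 62.9, 57.4 and 63.2 FPKM, and the ranges of the pair overlapped. The co-receptor LRP5 and beta-catenin, CTNNB1, stood at 59.97 ± 2.45 and 59.1 ± 2.34 FPKM. Targets that report the signal spanned a wide range. RNF43, a ligase that removes the receptors, stood at 33.98, 35.9 and 32.04 FPKM, AXIN2, the feedback scaffold, at 6.62, 7.12 and 6.699 FPKM, and NOTUM, a lipase that inactivates Wnt proteins, at 1.16, 1.32 and 1.14 FPKM. SP5, another target, was at 2.46 ± 0.3403 FPKM, while NKD1 averaged 0.0352 FPKM. Of the TCF factors, TCF7L2 stood at 14.6 ± 0.597 and TCF7 at 8.32 ± 0.346 FPKM, and LEF1 was above 0 in 1 library only. No Wnt ligand of the list was present: WNT3 and WNT11 averaged 0.622 and 0.534 FPKM and WNT5A was listed at 0 in all 3. APC, whose protein is truncated in this line, had a transcript level of 5.36 ± 0.292 FPKM.

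Of 32 receptor tyrosine kinases, 14 were present, a share of 43.8% against 57% of all protein-coding rows. The ranges of no adjacent pair among the present ones overlapped, so the order of these genes held whichever libraries were set side by side. ERBB3, the neuregulin receptor with little kinase activity of its own, led at 111, 117 and 114 FPKM. ERBB2, its usual partner, stood at 39.9, 44.3 and 42.8 FPKM and EGFR at 5.55, 5.01 and 4.904 FPKM. ERBB3 was 2.69 ± 0.0782 times ERBB2 and 22.2 ± 1.91 times EGFR. EPHB4 stood at 53.2 ± 2.78 FPKM and MET, the receptor of hepatocyte growth factor, at 47.1, 46.9 and 48.3 FPKM. Of the fibroblast growth factor receptors, FGFR4 stood at 36.6, 39.4 and 37.1 FPKM, FGFR2 at 24.4 ± 0.911 and FGFR3 at 12.4 ± 0.506 FPKM, whereas FGFR1 was listed at 0, 0.0538 and 0.04297 FPKM. AXL was under 1 FPKM in all 3 libraries. ALK, ERBB4, KIT, NTRK2, NTRK3, PDGFRA, RET and ROS1 were each listed at 0 in all 3.

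**Figure D3:**
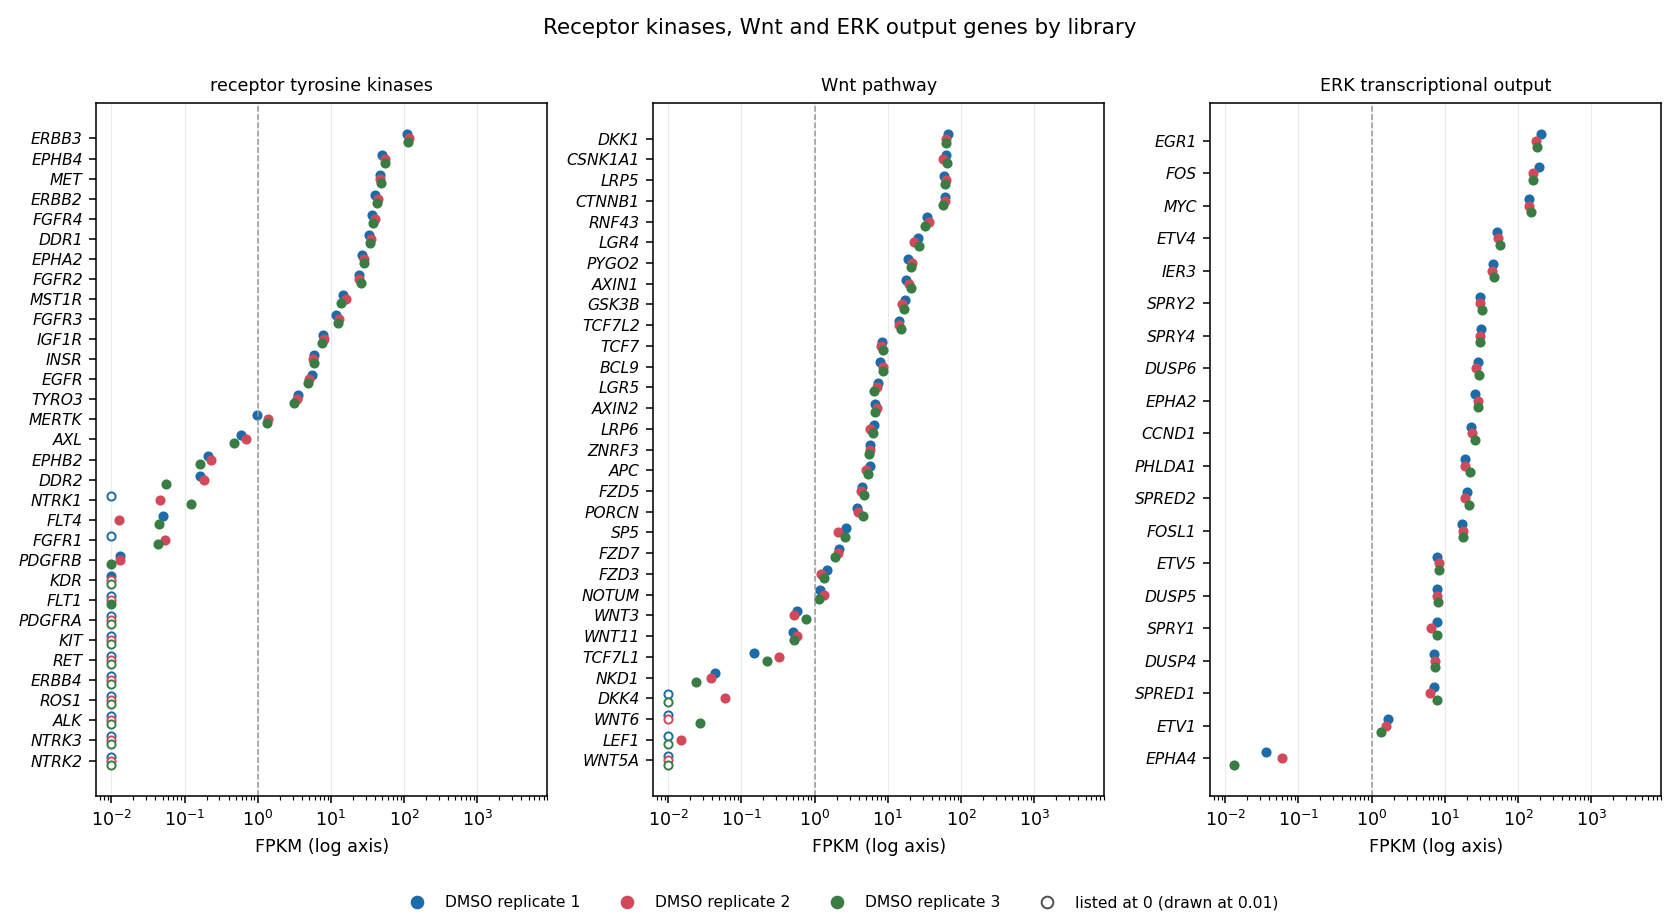
FPKM (log axis) of each receptor tyrosine kinase, Wnt gene and ERK output gene in each DMSO library, ordered by mean; colours give the replicate, open circles a value listed at 0, filled points at 0.01 a value at or below 0.01, and the dashed line 1 FPKM. ERBB3 stands alone above 100 FPKM among the receptors, and 19 of the 20 ERK output genes lie to the right of the dashed line.

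The kinase cascade below the receptors was present in 18 of 19 genes, against 57% of all protein-coding rows. Among the RAS genes, HRAS stood at 35.1 ± 3.71 and NRAS at 17.4 ± 1.38 FPKM. BRAF, the kinase mutated in this line, stood at 3.67, 3.83 and 3.26 FPKM, at rank 8949. Its relative ARAF was 6.84 ± 0.478 times BRAF. MAP2K2 and MAP2K1, the MEK kinases, stood at 44.9 ± 1.74 and 25.9 ± 0.685 FPKM, and MAPK3, an ERK kinase, at 30.2 ± 2.49 FPKM. KSR1, a scaffold of the cascade, was under 1 FPKM in all 3 libraries.

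Genes known as transcriptional output of ERK were present in 19 of 20 cases, against 57% of all protein-coding rows. EGR1, an immediate early factor, led at 206, 176 and 180.3 FPKM. FOS stood at 196, 159 and 159.5 FPKM and MYC at 139.6, 142 and 149 FPKM. For EGR1 and FOS replicate 1 was the highest, and for MYC replicate 3. ETV4, an ETS factor downstream of ERK, came next at 51.9, 52.8 and 56.8 FPKM, above its relatives ETV5 at 8.195 ± 0.382 and ETV1 at 1.53 ± 0.1704 FPKM. The feedback inhibitors were spread over the list. SPRY2 stood at 30.9 ± 1.22, SPRY4 at 30.4 ± 0.403 and DUSP6, the ERK phosphatase, at 28.04, 26.9 and 29.6 FPKM. Lower were the phosphatases DUSP5 and DUSP4, at 7.95 ± 0.156 and 7.33 ± 0.134 FPKM, and the inhibitors SPRY1 and SPRED1, at 7.39 ± 0.802 and 7.05 ± 0.806 FPKM. EPHA4 was the one member not present.

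MYC was 8.84 ± 0.413 times its partner MAX, at 16.3 ± 1.04 FPKM, and alone held 43.9% ± 0.893 of the summed FPKM of its network. MYCL stood at 18.8 ± 0.711 FPKM and MYCN was listed at 0, 0.0677 and 0.0505 FPKM. In the PI3K-AKT-mTOR list 21 of 24 genes were present, against 57% of all protein-coding rows. RHEB, the GTPase that activates mTOR, and EIF4EBP1, the translation repressor that mTOR inactivates, stood at 45.3 ± 3.64 and 43.1 ± 0.864 FPKM. AKT1 was 1.34 ± 0.05605 times AKT2. The catalytic subunits PIK3CA and PIK3CB stood at 7.84 ± 0.415 and 7.99 ± 0.555 FPKM, and their ranges overlapped.

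Every one of the 29 tumour suppressors of the list was present as RNA, against 57% of all protein-coding rows. CDKN2A, the locus of p16 and ARF, led at 95.02, 92.99 and 88.5 FPKM, at rank 674. CDKN1A, the cell cycle inhibitor p21, stood at 8.57 ± 0.0947 FPKM, and the mismatch repair genes MSH6 and PMS2 at 18.3 ± 0.0144 and 4.75 ± 0.342 FPKM. SMAD4, which carries a truncating change in this line, was the lowest of the list at 1.98, 1.71 and 1.77 FPKM, and SMAD3 was 9.58 ± 1.104 times SMAD4. TGFBR2 stood at 20.4 ± 0.411 and TGFBR1 at 2.92 ± 0.459 FPKM.

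All 25 proliferation genes were present, against 57% of all protein-coding rows, at a median of 29.5 FPKM. MCM7, of the replicative helicase, and CDK4 led at 111, 116 and 109 FPKM and 108, 114 and 109.6 FPKM, and their ranges overlapped. PCNA, the clamp of DNA polymerase, stood at 92.01 ± 1.83, MKI67 at 22.96 ± 1.43 and BIRC5, encoding survivin, at 21.6, 20.98 and 22.8 FPKM. CDK4 was well above its relative CDK6, at 8.92 ± 0.891 FPKM.

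Metabolic genes were among the most abundant outside the ribosome. Of the glycolysis list, 23 of 31 genes were present, against 57% of all protein-coding rows. A mean of at least 100 FPKM was reached by 10 of them. GAPDH led at 2859, 2982 and 2730.4 FPKM, at rank 29. LDHB, the lactate dehydrogenase subunit of oxidative tissues, stood at 921, 953 and 935 FPKM, above LDHA, the subunit of glycolytic tissues, at 726, 735 and 769 FPKM. LDHB was 1.26 ± 0.0411 times LDHA, above 1 in all 3 libraries. Enolase, ENO1, stood at 825 ± 41.3 FPKM, TPI1, the isomerase of triose phosphates, at 686 ± 30.8, and PKM, pyruvate kinase of muscle and tumours, at 492 ± 24.01. The liver form PKLR averaged 0.851 FPKM. The glucose carrier SLC2A1 stood at 111, 114 and 114 FPKM, while SLC2A3 was listed at 0 in all 3 libraries. HK1 was 3.303 ± 0.0904 times HK2, and HKDC1, a hexokinase of intestinal epithelium, stood at 12.7 ± 1.27 FPKM. SLC16A1, which carries lactate, stood at 40.6 ± 2.67 FPKM and SLC16A3, the exporter of glycolytic cells, at 25.5 ± 1.98.

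All 29 genes of pyruvate dehydrogenase and the citrate cycle were present, against 57% of all protein-coding rows. They were led by malate dehydrogenase MDH2 at 108 ± 1.17 FPKM and citrate synthase CS at 104 ± 3.03 FPKM. Pyruvate dehydrogenase kinases, which close the entry to the cycle, ranged from 16.8 ± 0.367 FPKM for PDK2 to 1.39 ± 0.106 FPKM for PDK3. Of the ketone and gluconeogenic genes 7 of 11 were present, a share of 63.6% that is near the 57% of all protein-coding rows. FBP1, fructose bisphosphatase, led at 55.98, 58.8 and 57.5 FPKM. OXCT1, which uses ketone bodies, averaged 0.0227 FPKM, and G6PC, which releases free glucose, was listed at 0 in all 3. For fatty acid oxidation 14 of 17 genes were present, against the same 57%. CPT1A, the mitochondrial gate, stood at 17.5 ± 0.774 FPKM. PPARGC1A, a co-activator of mitochondrial genes, was under 1 FPKM in all 3 libraries.

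Amino acid genes were present in 24 of 26 cases, against 57% of all protein-coding rows. The glutamine carrier SLC1A5 led at 163, 174 and 174 FPKM, followed by SHMT2, the mitochondrial serine enzyme, at 124 ± 2.65 FPKM. GLUD1, glutamate dehydrogenase, stood at 57.1 ± 1.66 FPKM. The urea cycle genes split: ASS1 and ASL were at 36.6 ± 1.02 and 27.7 ± 1.37 FPKM, CPS1 averaged 0.008298 FPKM and OTC was listed at 0 in all 3 libraries.

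Lipid synthesis was present in 22 of 26 genes, against 57% of all protein-coding rows, at a median of 40.7 FPKM over the list. SCD, the desaturase that makes oleate, led at 343, 363 and 356 FPKM. The cholesterol enzymes FDFT1, FDPS and SQLE followed at 189 ± 5.499, 167 ± 7.300 and 164 ± 9.33 FPKM, and fatty acid synthase FASN stood at 61.5 ± 3.69 FPKM. The desaturases of polyunsaturated fats stood far below SCD, with FADS1 at 0.478, 0.277 and 0.387 FPKM and FADS2 at 0.0651, 0.127 and 0.0435 FPKM. ELOVL5, the elongase that works with them, was listed at 0 in all 3. That zero was not tested against another count of the reads, and a failed estimate cannot be told apart from a low transcript here.

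**Figure D4:**
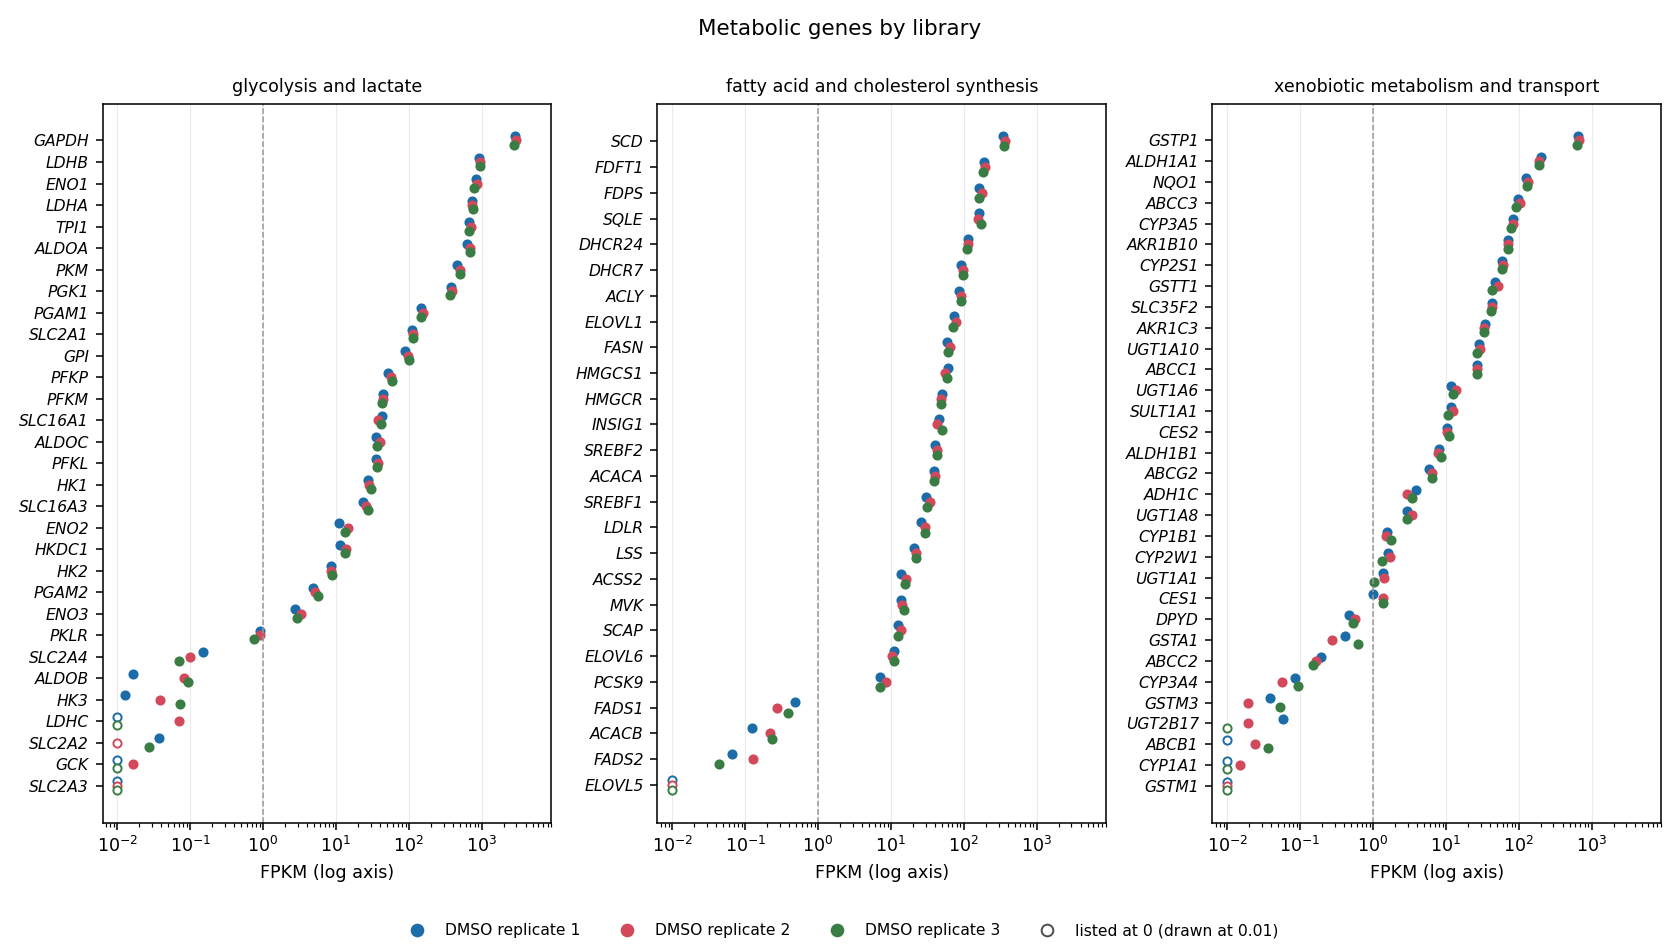
FPKM (log axis) of each gene of glycolysis, lipid synthesis and xenobiotic handling in each DMSO library, ordered by mean; colours give the replicate, open circles a value listed at 0, filled points at 0.01 a value at or below 0.01, and the dashed line 1 FPKM. GAPDH lies above 2000 FPKM in every library, and FADS1, ACACB, FADS2 and ELOVL5 lie left of the dashed line, apart from the other lipid genes.

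Drug and xenobiotic genes were present in 23 of 32 cases, against 57% of all protein-coding rows. GSTP1, a glutathione transferase of tumour cells, led at 649, 683 and 630.3 FPKM, at rank 111, and held 42.7% ± 0.593 of the summed FPKM of the list. ALDH1A1, a retinal dehydrogenase, stood at 204, 189 and 193 FPKM and NQO1, a quinone reductase, at 125, 133 and 128 FPKM. CYP3A5 stood at 82.2 ± 2.72 FPKM, whereas CYP3A4, the main drug oxidase of liver and small intestine, averaged 0.0787 FPKM. SLC35F2, the solute carrier known to bring YM155 into cells, stood at 43.2, 42.8 and 41.7 FPKM, at rank 1567. ABCB1, the efflux pump P-glycoprotein, was listed at 0, 0.0243 and 0.0362 FPKM, all below the value of 3 reads on 2000 bases, and ABCG2 stood at 6.27 ± 0.338 FPKM. ABCC3 and ABCC1, pumps of conjugated compounds, were at 97.98 ± 5.48 and 26.9 ± 0.246 FPKM. GSTM1, which is deleted in many people, was listed at 0 in all 3 libraries. UGT1A forms share exons and AKR1C genes are near-identical, so their reads may be split between rows.

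Markers of other cell types were nearly all low, and the share present in each of their lists was below the 57% of all protein-coding rows. Among fibroblast and mesenchymal genes 1 of 20 was present, SNAI1 at 2.05, 2.06 and 2.498 FPKM, a factor also made by carcinoma cells. The summed level of that list ran from 2.81 to 3.499 FPKM, and vimentin, VIM, averaged 0.0589 FPKM, with DCN, THY1 and TWIST1 listed at 0 in all 3 libraries. Of the blood and immune list 1 of 16 was present, the lysosomal protein CD68 at 4.85 ± 0.921 FPKM. Its summed level ran from 5.84 to 8.06 FPKM, and PTPRC, encoding CD45, was above 0 in 1 library only. Of the endothelial list 1 of 10 was present, the junction protein ESAM at 16.4, 17.7 and 15.8 FPKM. Its other 9 members were under 1 FPKM, PECAM1 averaging 0.0523 FPKM, and the summed level ran from 15.9 to 17.9 FPKM.

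Of genes of other epithelia 2 of 18 were present, PAX8 at 1.32, 1.17 and 1.51 FPKM and the trypsinogen PRSS1 at 1.37, 1.07 and 1.195 FPKM, a row whose reads may be shared with its near copies. Albumin, the surfactant genes SFTPB and SFTPC and the gastrokines were under 1 FPKM or listed at 0. Of neural and germ line genes 1 of 15 was present, the cancer-testis antigen MAGEA3 at 24.8, 24.1 and 24.2 FPKM. MAGEA3 has near-identical relatives on the X chromosome, so its level is uncertain.

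The libraries lay close together for most genes. The median coefficient of variation, the SD divided by the mean, of present protein-coding genes fell with level, from 7.75% at 1 to 5 FPKM to 4.28% at 10 to 100 FPKM and 3.82% at 100 FPKM or more. Of the 10804 present protein-coding genes, 113, or 1.05%, differed by 1.5 times or more between their highest and lowest library, and 9 by 2 times or more. H3F3A, the histone gene named above, had the largest spread on the log2 scale, with 15.02, 11.3 and 0 FPKM, of which the 0 is a listed value. NUDT4P1 was next at 24.7, 5.91 and 14.7 FPKM. Several others of the 15 most variable genes are rows that share exons or sequence with another row, among them RBM14-RBM4, ANKHD1-EIF4EBP3 and COMMD3-BMI1, which are read-through transcripts of neighbouring genes. The remaining ones included the metallothionein MT2A at 10.8, 5.89 and 7.34 FPKM, the retinol dehydrogenase RDH5 at 6.34, 7.397 and 3.33 FPKM, MARCKS, a substrate of protein kinase C, at 19.02, 14.4 and 22.4 FPKM, and transthyretin, TTR, at 4.34, 7.04 and 5.79 FPKM.

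A list of immediate early genes, which are switched on within minutes of a stimulus, and of stress genes such as metallothioneins and heat shock genes stood higher in replicate 1. Of 24 present members, 15 were higher in replicate 1 than in both other libraries, against 28.9% of all present protein-coding genes. The median log2 ratio of replicate 1 to the mean of the other libraries was 0.13 for the list and -0.0038 for all present protein-coding genes. For replicate 2 it was -0.15, and 17 of the list were lowest there. JUN stood at 109, 94.9 and 102 FPKM, FOSB at 68.8, 51.96 and 50.8 FPKM and the stress gene ATF3 at 24.3, 16.8 and 18.7 FPKM. Other lists were also mostly highest in replicate 1, the fetal and regenerative list in 8 of 12 genes and the absorptive list in 6 of 9. Their median log2 ratios there were 0.085 and 0.026. The ERK output list, which shares EGR1, FOS, MYC and IER3, was instead highest in replicate 3 in 12 of 19 genes. These are sizes with no test, since the design has no groups to compare.

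Ribosomal protein genes were higher in replicate 2. Of 83 present ones, 77 were highest there, against 36.9% of all present protein-coding genes, with a median log2 ratio of 0.12, against 0.0002 for all present protein-coding genes. Present protein-coding genes were ranked by annotated transcript length into 5 classes. From the shortest class to the longest, the median log2 ratios in replicate 2 were 0.0066, 0.0061, 0.0125, -0.0021 and -0.0216. They did not fall steadily with length. The part of length in the ribosomal protein difference was not tested. Other lists passed that share with smaller ratios. Glycolysis genes were highest in replicate 2 in 60.9% of 23 cases, with a median log2 ratio of 0.06. Lipid synthesis genes were so in 63.6% of 22 cases and xenobiotic genes in 56.5% of 23, each with a median log2 ratio of 0.05.

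**Figure D5:**
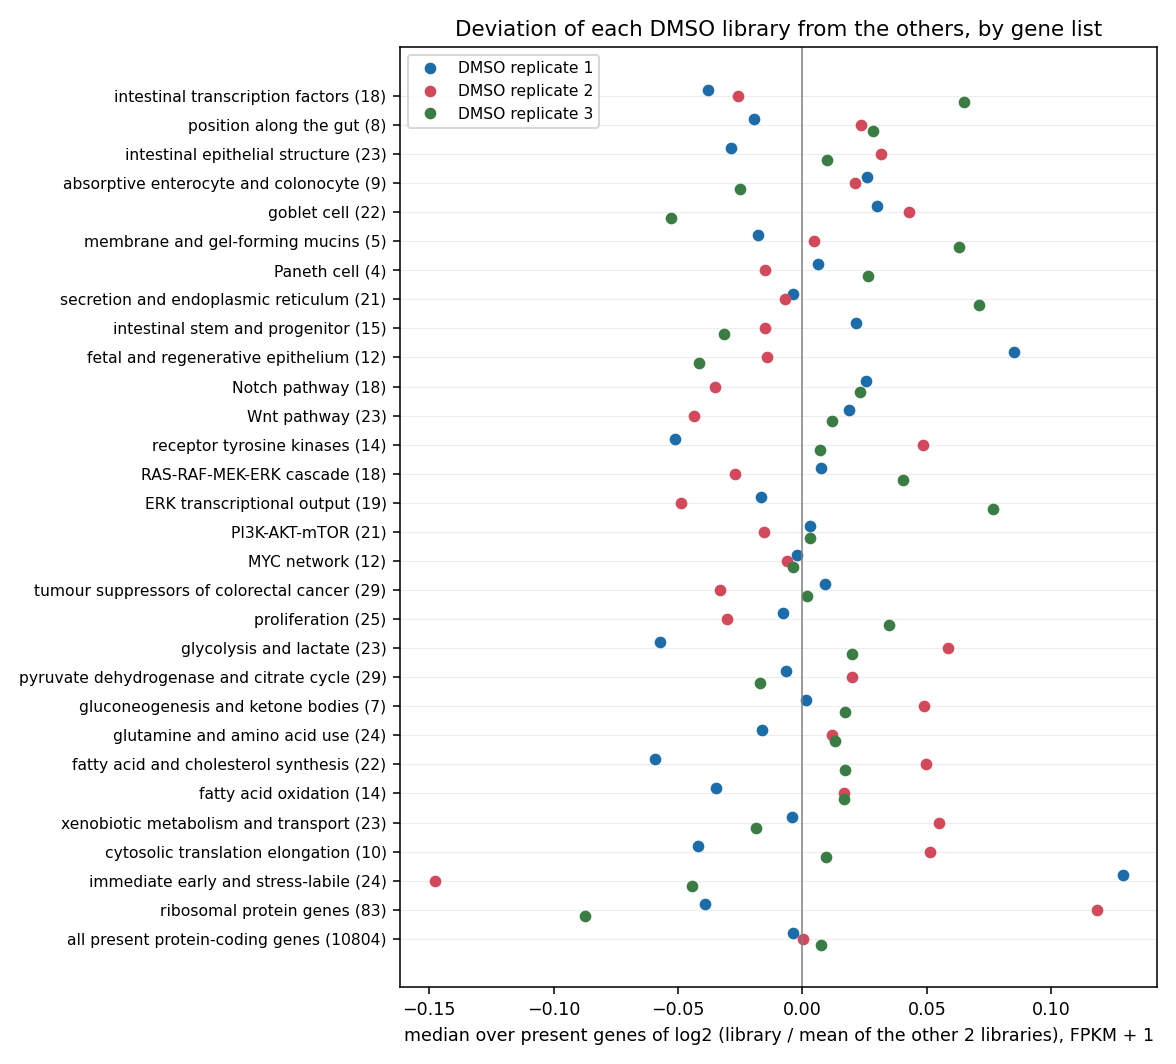
Median over the present genes of each list (number in brackets) of the log2 ratio of 1 DMSO library to the mean of the other 2, with 1 FPKM added to each value; colours give the replicate. Most lists lie within 0.1 of 0, whereas immediate early and stress genes lie at 0.13 in replicate 1 and -0.15 in replicate 2, and ribosomal protein genes at 0.12 in replicate 2.

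Promoter sequence was compared with level, using RefSeq promoters on GRCh38.p14, of which 8957 belonged to present protein-coding genes (82.9% of these). A start of transcription in a run of pyrimidines after a C is known for genes whose translation follows mTOR activity. A C followed by 4 pyrimidines at the annotated start was found in 64.7% of the 68 promoters of present ribosomal protein genes. The share was 5.75% over present protein-coding genes and 4.04% over all 27305 promoters searched. That larger set, used for every share over all promoters here and below, was not limited to protein-coding genes. A difference from it therefore does not separate level from gene class. Present genes were ranked by level into 10 classes. In the highest class the share was 14.2%, and 10.1% once the ribosomal protein genes were left out. With 5 classes the highest held 9.83% and the lowest 4.25%, so the gap between highest and lowest class fell from 10.6 percentage points with 10 classes to 5.58 with 5.

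An ETS site, CCGGAAGT on either strand in the 250 bases before the start, was in 4.65% of promoters in the lowest of 5 classes of present genes by level. The share was 7.91% in the middle class and 10.8% in the highest, against 3.64% of all promoters. A TATA box was TATAAA on the gene's strand, lying wholly between 40 and 20 bases before the start. It was more frequent at either end of the range. It was in 2.12% of the lowest class, 0.885% of the middle and 2.96% of the highest, with 2.48% over all promoters. These shares are descriptions, and a match is not a bound site.

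The 6 promoters below show the motifs in genes whose levels are given above. Each line holds the 100 bases before the annotated start, 5′ to 3′ on the strand of the gene, with the motif in capitals: TATAAA in SPINK4, REG4, MMP7 and FOS, the ETS site read on the other strand in KRT8, and GC boxes (GGGCGG on either strand, overlapping in 1 place) in TMSB10.
SPINK4: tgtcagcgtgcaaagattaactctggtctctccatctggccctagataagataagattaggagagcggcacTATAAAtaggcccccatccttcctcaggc
REG4: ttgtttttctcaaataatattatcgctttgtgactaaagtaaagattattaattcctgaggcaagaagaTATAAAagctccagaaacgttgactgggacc
MMP7: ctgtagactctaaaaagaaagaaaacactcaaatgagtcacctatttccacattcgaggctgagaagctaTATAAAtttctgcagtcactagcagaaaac
FOS: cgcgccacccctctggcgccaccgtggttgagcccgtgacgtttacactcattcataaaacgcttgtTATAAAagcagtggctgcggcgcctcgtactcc
KRT8: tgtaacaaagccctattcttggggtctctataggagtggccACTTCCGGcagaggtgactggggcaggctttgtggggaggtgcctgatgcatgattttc
TMSB10: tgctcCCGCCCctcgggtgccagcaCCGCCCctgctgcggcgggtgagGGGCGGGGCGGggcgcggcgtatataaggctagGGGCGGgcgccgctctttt

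On GRCh38.p14 the stretches lie at chr9:33240067-33240166 (plus strand) for SPINK4, chr1:119811461-119811560 (minus) for REG4, chr11:102530748-102530847 (minus) for MMP7, chr14:75278728-75278827 (plus) for FOS, chr12:52926470-52926569 (minus) for KRT8 and chr2:84905556-84905655 (plus) for TMSB10. The first base of TATAAA lay 29 bases before the start in SPINK4, 31 in REG4, 30 in MMP7 and 33 in FOS. The promoters shown were picked, for holding a motif, among the highest genes of all or of a list. They therefore do not show how motif and level go together. SPINK4, REG4, MMP7 and FOS, an inhibitor, a lectin, a protease and an immediate early factor, were all above 100 FPKM in each library. KRT8 and TMSB10 were higher still and held no TATAAA in the 250 bases searched, although 11.1% of all promoters held one there on either strand. Only that exact run of letters was searched, and the TMSB10 stretch above holds the similar run tatataag. A GC box was in 68.9% of promoters of present protein-coding genes and in 42.3% of all promoters, the latter not limited to protein-coding genes.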

How the data were processed

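RNA of HT29 cells was sequenced with a stranded mRNA kit, per the labels. The submitters' processing notes name the build hg19, the quantifiers Cufflinks 2.2.1 and Cuffdiff, the aligner TopHat2 (2.1.1) with Bowtie2 (2.3.5.1), and SAMtools (1.2). How strand, library size and annotation were handled is not given in the sources used here. The authors deposited 1 table of FPKM per library, with 26255 rows by gene symbol. The 3 DMSO tables were used and the 3 YM155 tables were not. Of the rows, 95.6% matched RefSeq (GRCh38.p14) symbols, which gave the gene class; promoter sequences came from the same release.

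Computed from the deposited FPKM, with Python 3.11.15, NumPy 2.4.6 and pandas 2.3.3, were the mean, SD, coefficient of variation, rank, counts present (at least 1 FPKM in all 3 libraries), and log2 ratios with 1 FPKM added. With 1 group there is nothing to compare, so no test was run. Depth was estimated from the steps between low values of genes with 1 annotated transcript (GENCODE 29), assuming fragments of 200 bases; 65 to 67.0% of low values came within 0.1 read of a whole number, so read counts were not recovered for a count test. On these estimated reads, rounded, the chi-square per degree of freedom of each pair was 2.60 to 4.67. Because the counts were not recovered, it does not show whether a pair lay within sampling noise. Spread and level calculations were tested on simulated data.

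The 35 lists were chosen with earlier results of these data known. Genes were named out of the 25 highest protein-coding genes, the 5 highest of each list with its defining members under 1 FPKM, the 15 most variable genes at a mean of at least 5 FPKM and the 10 highest long non-coding RNAs, not all of which are printed; other members named with them and the gene ratios were chosen after their values were seen. Promoter shares of low genes are given by 5 classes of level because the lowest of 10 had a promoter for only 79.3% of its genes. Alternatives were scale, limit for presence, filter, pseudocount and leaving out each library. Some members of the lists are counted but not reported here by name.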

Additional observations from a re-analysis of the deposited data

How the results depend on the processing

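Of 609 values recomputed under another setting, 550 moved by less than the spread between libraries or, for counts, by less than 1.5 times. Many of them could hardly move further. Leaving out 1 of 3 libraries shifts a mean by less than the SD of the 3, and median-of-ratios scaling changed the values very little. The count of 550 is therefore not a measure of robustness. A reversal could be scored only for the promoter shares, and none of these reversed. Scaling by the median of ratios had factors of 0.9998 to 1.004. Rescaling each library to the same sum, as TPM does, raised every level and gave 1259 rows at a mean of at least 100 FPKM, against 639; it moved the median level of 34 of 35 lists and gave a median coefficient of variation of 5.96%, against 5.25%. That median was 4.29% for genes at a mean of at least 10 FPKM and 8.29% with no filter. With 1 replicate left out at a time it ran from 3.72% to 4.76%. An SD of 2 values tends to be lower than an SD of 3, so these are not comparable with 5.25%. Of the 15 most variable genes, 6 remained among the 15 most variable at a mean of at least 10 FPKM. Counts of members present moved by over 1.5 times only in lists with 1 or 2 members present: 4 enteroendocrine genes at 0.5 FPKM and 1 at 2 FPKM, against 2; 2 blood and immune genes at 0.5 FPKM, against 1; and 0 genes of other epithelia at 2 FPKM, against 2. Leaving out each replicate in turn gave 1 to 2 blood and immune genes, with 2 without replicate 3.

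No paired analysis was possible because only 1 group was used. Identity between related proteins was not run, since no protein sequences were used here. FPKM carry no read counts, and levels under about 0.06 FPKM rest on few reads.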

Other observations

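Long non-coding RNAs were present in 433 of 2922 rows of that class, against 44.3% of all rows. The highest were host genes of small nucleolar RNAs. LRRC75A-AS1 (now SNHG29) led at 677, 686 and 654 FPKM, followed by GAS5 at 575, 617 and 543 FPKM, ZFAS1 at 517, 563 and 509 FPKM, SNHG8 at 385, 413 and 438 FPKM and SNHG6 at 321, 327 and 334 FPKM. LRRC75A-AS1, GAS5 and ZFAS1 were highest in replicate 2, and SNHG8 and SNHG6 in replicate 3. C6orf48 (now SNHG32), SNHG1 and DANCR lay between 112 and 149.6 FPKM on average. SNHG25 varied most among the 10 highest, at 87.8, 185 and 163 FPKM. PCNA-AS1 stood at 134 ± 11.5 FPKM and overlaps PCNA on the opposite strand; whether the counting used strand is not given in the sources used here, so its reads cannot be told apart from those of PCNA.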
